A study of Mus musculus with 6 samples.

Results

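The genes that copy chromosomal DNA were followed as a group in mouse myeloid progenitors at 24 h after loss of a histone chaperone or of a self-renewal factor. The group held 46 genes, listed by their role in replication by a rule that used no measured value, though with earlier results of these data known, and all 46 were found among the 34199 gene symbols of the count tables. They comprised 13 genes for the MCM helicase and its loading, 11 for DNA polymerases, 8 for the sliding clamp and its loader, 5 for nucleotide supply, 7 for single-strand binding, lagging-strand processing and fork stability, and 2 for cyclin E. In short, the group sat slightly lower in HOXA9 OFF than in control, with 4 of 46 genes called lower (Gins2, Pold2, Tyms and Dut, 8.7% against 8.97% of all genes tested). It had no called gene in CAF-1 OFF, where 0.0321% of all genes were called and Rrm2 had the largest difference of the 46.

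RNA-seq was performed on iGMPs, granulocyte-macrophage progenitors of C57Bl/6 mice that carry a lysozyme-GFP reporter and are immortalized by HOXA9 fused to a mutant estrogen receptor ligand-binding domain, so that self-renewal depends on estradiol. The CAF-1 OFF cells were given 500 µM IPTG for 24 h to express a short hairpin RNA against Chaf1b, which codes for part of the histone chaperone CAF-1, and were kept in 150 ng/ml estradiol. The control cells were also cultured with IPTG for 24 h, in the estradiol medium, and the HOXA9 OFF cells were washed free of estradiol for 24 h. Each of the 3 groups had 2 libraries. All cells grew with stem cell factor, and all carried the HOXA9 fusion. The labels did not say whether HOXA9 OFF cells received IPTG or which vector they carried, and the hairpin lines of the study were clonal, so clone, vector and IPTG cannot be told apart from the labelled treatment. The labels do not say whether libraries 1 and 2 came from separate cultures. The study describes RNA-seq at a later time point as made from independent sub-clones, which was not stated for these libraries, so p-values may measure only technical spread.

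Replication starts when the origin recognition complex, Cdc6 and Cdt1 load the ring-shaped MCM helicase onto DNA in G1. In S phase, Cdc45 and the GINS complex join MCM to form the active helicase. DNA polymerase alpha with primase lays down primers, polymerases epsilon and delta extend them, the RFC complex loads the PCNA clamp, RPA coats single strands, and Fen1 and Lig1 finish the lagging strand. Many of these genes are transcribed around the G1-to-S transition under E2F factors, which are held back by the retinoblastoma family, and cyclin E with its kinase promotes the transition. CAF-1 binds PCNA and deposits histones H3 and H4 on newly made DNA. Myeloid progenitors divide quickly, and neutrophils leave the cell cycle as they mature.

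Promoters were read from RefSeq (GRCm38.p6, 250 bases before to 50 after each annotated start), and 36 of the 46 genes had an entry. Sequences are shown for the 6 genes with entries that led the comparisons (Cdc6, Pold2, Rrm2, Tyms, Dut and Rpa3) and for Mcm5 and Mcm6, in which E2F motif words lay close together, so that promoters with and without these words can be compared. Each runs 5′ to 3′ on the strand of the gene, and capitals mark any of the words TTTGGCGC, TTTCCCGC, TTTCGCGC and TTTGCCGC on either strand.
Cdc6 (chr11:98907901-98908200, plus strand): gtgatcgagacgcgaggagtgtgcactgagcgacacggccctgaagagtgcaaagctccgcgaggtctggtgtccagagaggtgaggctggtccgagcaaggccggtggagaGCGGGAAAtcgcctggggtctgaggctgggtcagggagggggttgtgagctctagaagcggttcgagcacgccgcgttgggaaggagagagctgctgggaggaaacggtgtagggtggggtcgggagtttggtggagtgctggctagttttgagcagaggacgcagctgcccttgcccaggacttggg
Mcm5 (chr8:75109259-75109558, plus strand): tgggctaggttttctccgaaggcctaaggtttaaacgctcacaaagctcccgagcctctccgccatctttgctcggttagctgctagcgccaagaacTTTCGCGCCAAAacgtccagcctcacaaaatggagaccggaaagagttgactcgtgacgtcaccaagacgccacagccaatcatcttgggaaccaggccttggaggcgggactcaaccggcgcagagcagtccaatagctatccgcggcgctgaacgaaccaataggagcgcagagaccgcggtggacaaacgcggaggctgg
Mcm6 (chr1:128359656-128359955, minus strand): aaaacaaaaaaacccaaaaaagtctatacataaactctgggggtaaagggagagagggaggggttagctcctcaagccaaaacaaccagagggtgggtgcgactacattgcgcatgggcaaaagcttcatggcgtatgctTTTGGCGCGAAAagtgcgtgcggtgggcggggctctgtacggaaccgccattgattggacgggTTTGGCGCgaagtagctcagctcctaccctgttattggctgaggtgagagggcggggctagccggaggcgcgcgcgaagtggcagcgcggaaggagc
Pold2 (chr11:5878207-5878506, minus strand): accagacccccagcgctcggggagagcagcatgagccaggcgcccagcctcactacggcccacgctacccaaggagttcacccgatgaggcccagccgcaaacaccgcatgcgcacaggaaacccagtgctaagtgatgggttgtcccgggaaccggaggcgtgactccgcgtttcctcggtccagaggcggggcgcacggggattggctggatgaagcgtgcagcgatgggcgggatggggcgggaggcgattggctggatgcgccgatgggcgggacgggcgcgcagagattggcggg
Rrm2 (chr12:24708004-24708303, plus strand): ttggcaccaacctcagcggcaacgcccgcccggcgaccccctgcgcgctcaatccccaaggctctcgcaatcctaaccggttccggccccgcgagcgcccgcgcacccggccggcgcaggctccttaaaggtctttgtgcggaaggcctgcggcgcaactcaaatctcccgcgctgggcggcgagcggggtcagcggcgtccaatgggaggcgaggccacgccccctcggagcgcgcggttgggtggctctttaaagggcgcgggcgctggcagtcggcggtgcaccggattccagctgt
Tyms (chr5:30073576-30073875, minus strand): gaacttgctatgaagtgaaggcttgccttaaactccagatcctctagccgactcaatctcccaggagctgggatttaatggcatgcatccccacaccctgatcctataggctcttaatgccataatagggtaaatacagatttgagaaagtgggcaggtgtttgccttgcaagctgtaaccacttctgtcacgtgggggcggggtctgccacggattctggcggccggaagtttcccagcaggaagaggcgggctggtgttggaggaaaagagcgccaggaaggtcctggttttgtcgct
Dut (chr2:125247265-125247564, plus strand): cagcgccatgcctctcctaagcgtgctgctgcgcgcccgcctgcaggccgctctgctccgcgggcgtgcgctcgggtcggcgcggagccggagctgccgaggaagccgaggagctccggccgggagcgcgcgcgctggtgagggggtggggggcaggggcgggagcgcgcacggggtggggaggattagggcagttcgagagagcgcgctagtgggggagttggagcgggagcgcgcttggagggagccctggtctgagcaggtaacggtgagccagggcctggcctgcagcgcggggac
Rpa3 (chr6:8259092-8259391, minus strand): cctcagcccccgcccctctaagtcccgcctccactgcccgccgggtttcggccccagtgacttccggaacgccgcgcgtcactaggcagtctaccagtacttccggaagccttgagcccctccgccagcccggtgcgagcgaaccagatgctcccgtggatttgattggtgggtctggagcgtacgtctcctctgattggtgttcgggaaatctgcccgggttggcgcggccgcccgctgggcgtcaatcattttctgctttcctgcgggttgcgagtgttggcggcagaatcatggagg

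At least 1 E2F word was found in 14 of 36 genes (38.9%), against 704 of 27025 genes in the whole promoter table (2.6%). The 14 were Cdc6, Cdt1, Gins3, Mcm3, Mcm5, Mcm6, Mcm7, Pola1, Pold1, Pold3, Pole2, Pole4, Rfc3 and Lig1. Of these, 7 belong to the subgroup of the MCM helicase and its loading and 0 to nucleotide supply. In Mcm5 and Mcm6 a word on one strand overlapped a word on the other, so these matches are not separate, and Mcm6 held 3 matches in all. Pold2 has 2 annotated starts, and neither window held a word. The CCAAT box (CCAAT on either strand, the site of NF-Y) was in 20 of 36 genes (55.6%), against 41.1% of all genes. The CHR element (TTTGAA on either strand), known from mitotic genes, was in 4 of 36 (11.1%), against 20.2% of all genes. The motif types were counted separately, a match is a description and not a binding site, and the shares got no test.

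**Figure D1:**
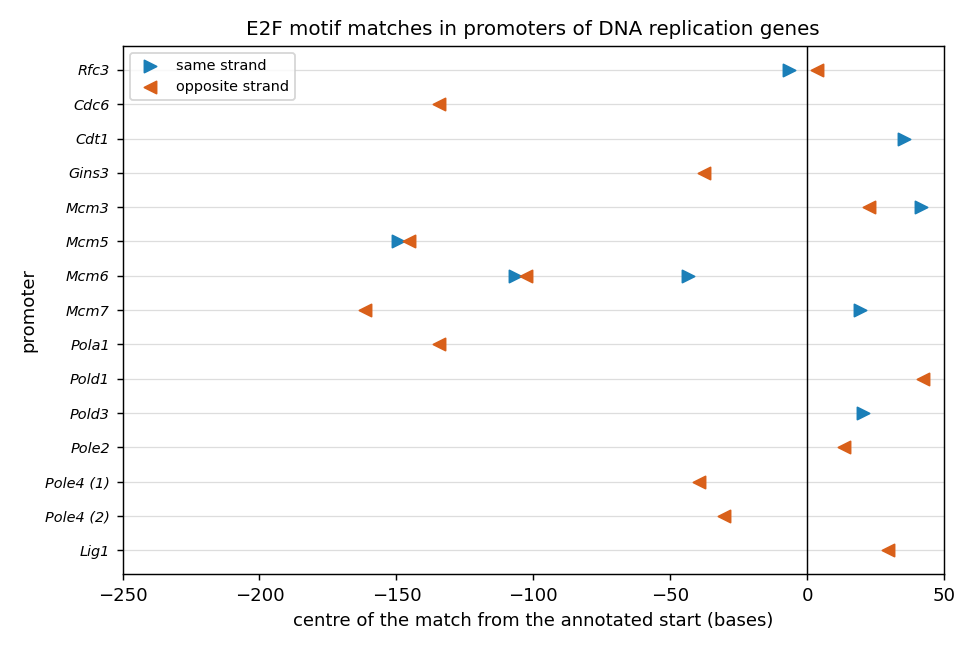
Positions of E2F motif words in promoters of DNA replication genes, in bases from the annotated start (x axis), with one row per promoter that held a word and arrows for the strand of the match relative to the gene. Matches lie between the distal match of Mcm7 and the matches of Pold1 and Mcm3 just after the start, and Mcm6 holds 3.

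The libraries held 16773560 to 25170898 gene counts, and 3 counts corresponded to 0.119 to 0.179 CPM (counts scaled to 1 common library size, with TMM factors). All 46 genes passed the expression filter that kept 12460 genes, with 227 to 29220 counts in a library. The hairpin target Chaf1b stood at 17.8 and 12.1 CPM in CAF-1 OFF cells, 90 and 105 CPM in control and 64.6 and 61.4 CPM in HOXA9 OFF (CAF-1 OFF against control log2 fold change −2.71 ± 0.20 SE, edgeR FDR = 0.0198). Both CAF-1 OFF libraries were below the other 4, as the hairpin label says. The summed level of 7 myeloid progenitor markers was 11314 to 16769 CPM over the libraries, most of it Mpo, Ctsg, Cd34 and Prtn3. In HOXA9 OFF against control 4 of the 7 were called lower (Flt3, Cd34, Kit and Ctsg) and 0 higher by edgeR, with 2 higher at an unadjusted p under 0.05 and 1 (Prtn3) called higher by DESeq2. Flt3, a receptor of early progenitors, fell to 5.02 and 3.46 CPM in HOXA9 OFF from 237 and 329 CPM in control (log2 fold change −6.05), and Cd34 (−1.86), Kit (−1.16) and Ctsg (−0.68) fell less. Of 7 neutrophil markers, 6 were called higher in HOXA9 OFF than in control. In CAF-1 OFF edgeR called 0 of the 7 and DESeq2 called 4 higher (S100a8, S100a9, Mmp8 and Cybb). Each of the 7 was higher in the CAF-1 OFF libraries than in either control (20.1% of all genes were), 5 had an unadjusted p under 0.05 and the median log2 fold change was 2.463. In HOXA9 OFF against control the median of the 7 was 6.248. In CAF-1 OFF against HOXA9 OFF it was −3.92, with 6 of the 7 called lower and 1 higher, against 12.6% and 9.56% of all genes. The summed level of the 7 was between 45.8 and 76.4 CPM in control, between 366 and 659 CPM in CAF-1 OFF and between 358 and 659 CPM in HOXA9 OFF. The CAF-1 OFF sum was nearly all Mmp8. The summed levels were 0.579 to 1.97 CPM for 5 erythroid markers, 46.8 to 69.5 CPM for 5 lymphoid markers with Cd3e at 0 in every library, and 236 to 444 CPM for 5 stromal and endothelial markers, nearly all of it Pecam1. In HOXA9 OFF against control 1 of 4 lymphoid markers tested was called lower (log2 fold change −5.27), where 8.97% of all genes were. Of 2 stromal and endothelial markers tested, 1 was called higher (0.86), where 13% of all genes were.

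In HOXA9 OFF against control, the group as a whole was lower. The summed level of the 46 genes was 8240 and 7372 CPM in HOXA9 OFF against 9566 and 9083 CPM in control, so both HOXA9 OFF libraries were below both controls. A call required a 1.5-fold difference or more and an FDR (Benjamini-Hochberg) under 0.05 in edgeR's quasi-likelihood test across all genes. By this rule 4 of 46 genes were called lower (8.7%), which is close to the 8.97% of all tested genes called lower. Gins2, Pold2, Tyms and Dut made up these 4, and 0 of 46 were called higher, against 13% of all genes, with 1 at an unadjusted p under 0.05 and 0 called by DESeq2. With the FDR alone, 17 of 46 genes were lower (37%) against 13.8% of all genes. In 34 of 46 genes (73.9%) both HOXA9 OFF libraries lay below both controls, against 35.9% of all genes. The median log2 fold change was −0.27 over the 46 genes and −0.003 over all 12460, and 41 of 46 values were below 0. A lower level in bulk RNA can reflect fewer cells that express these genes or less RNA per cell, and in these samples the 2 cannot be told apart.

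The calls rested partly on single libraries. Without control 2, or without HOXA9 OFF 2, 1 of 46 genes was called (Pold2 in both cases, 2.17%), where 4.57% and 6.13% of all genes were called lower. Without control 1 there were 6 (13%), against 6.99% of all genes. In the same libraries 6 of 7 neutrophil markers were called higher and 4 of 7 progenitor markers lower, as given above, and their part in the lower levels was not tested.

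In CAF-1 OFF against control, the group was close to control. The summed level was 9148 and 9187 CPM against 9566 and 9083 CPM, and the libraries overlapped. The test called 0 of 46 genes, and across all genes it called 0.0321%. DESeq2 also called 0 of 46, where it called 1.54% of all genes. At an unadjusted p under 0.05 there were 3 of 46 genes (6.52%), against 10.7% of all genes, and all 3 (Rrm2, Ccne2 and Cdc6) were higher in CAF-1 OFF. The median log2 fold change was −0.004 over the 46 genes and −0.004 over all genes, and the values ran from −0.47 for Mcm6 to 0.55 for Rrm2. The Mcm6 value rested largely on control 1 (1148 CPM), since control 2 had 698 CPM and CAF-1 OFF 650 and 683 CPM. With 2 libraries per group, standard errors were 0.09 to 0.30 on the log2 scale.

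**Figure D2:**
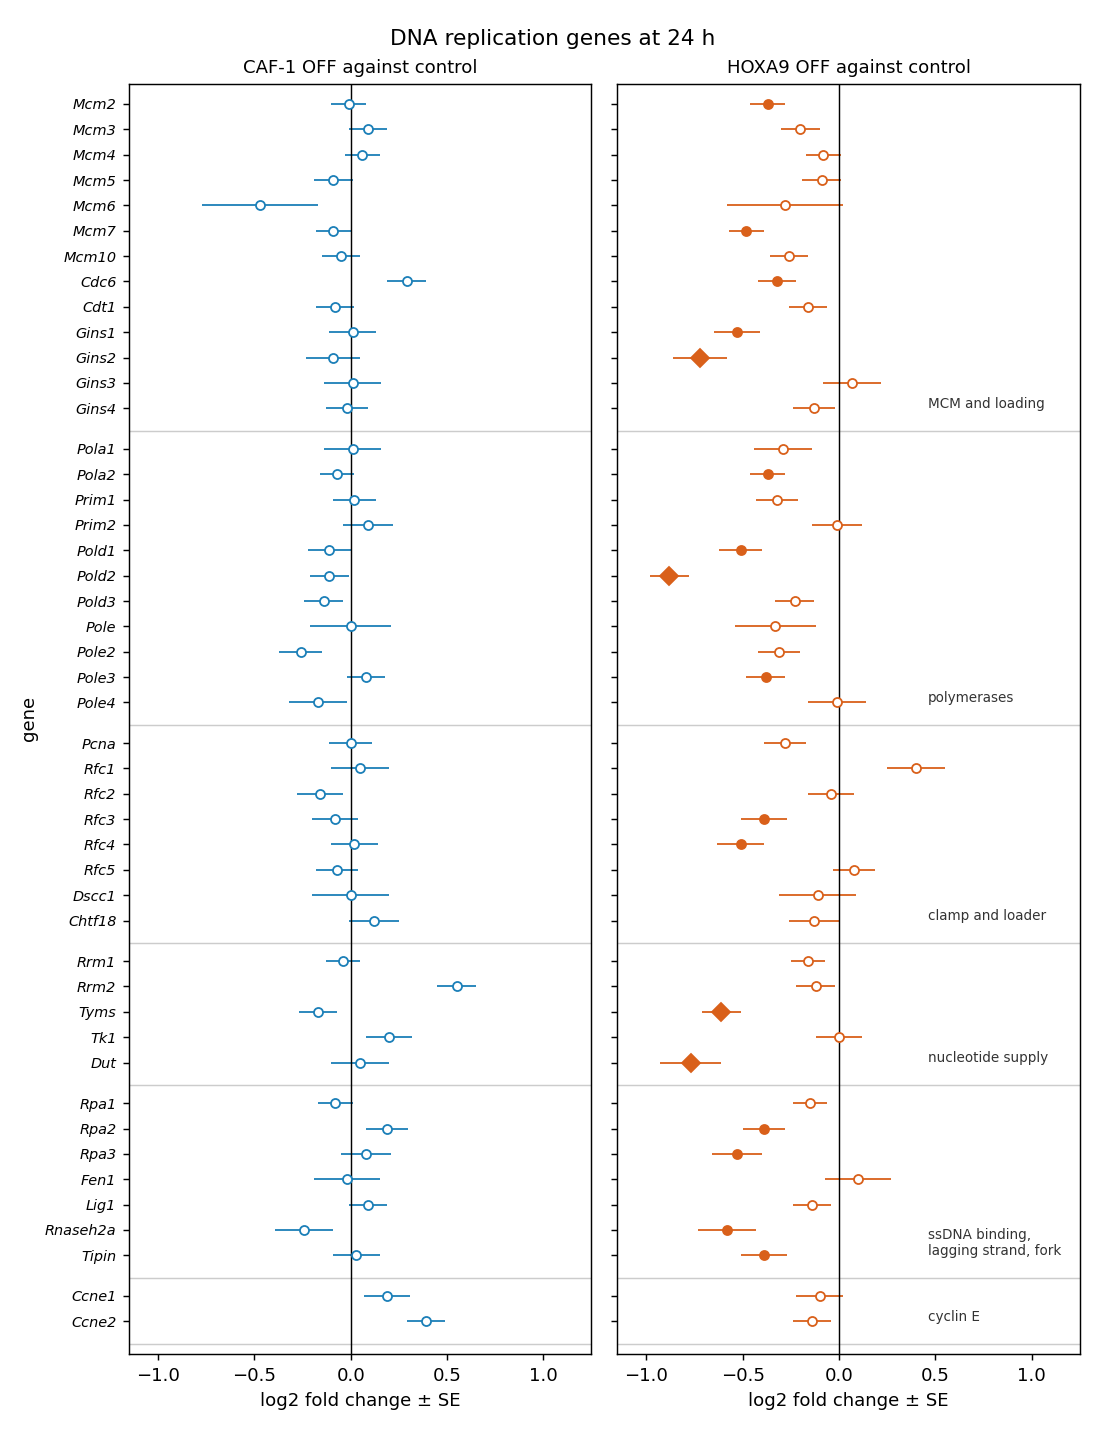
Log2 fold change (x axis, points) with its standard error (bars) for each of the 46 genes (rows, by subgroup) in CAF-1 OFF (left) and HOXA9 OFF (right) against control, n = 2 libraries per group. Filled symbols have an edgeR FDR under 0.05 and diamonds are also past 1.5-fold; 17 symbols are filled on the right, of which 4 are diamonds, and 0 are filled on the left.

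Set directly against HOXA9 OFF, CAF-1 OFF had 6 of 46 genes called higher (13%), namely Cdc6, Gins2, Pold2, Rrm2, Dut and Rpa3, against 9.56% of all genes, and 0 called lower, against 12.6% of all genes, with 0 at an unadjusted p under 0.05 and 0 by DESeq2. With the FDR alone, 18 of 46 were higher (39.1%), against 14.3% of all genes. In 34 of 46 genes (73.9%) both CAF-1 OFF libraries lay above both HOXA9 OFF libraries, against 33% of all genes. The median log2 difference was 0.29 over the 46 genes and 0.001 over all genes. Without HOXA9 OFF 2, 3 genes were called (Cdc6, Pold2 and Rrm2), against 6.1% of all genes called higher, and without CAF-1 OFF 2 there were 9, against 9.23%. The comparisons share libraries, so their values stand side by side and are not independent of each other.

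**Figure D3:**
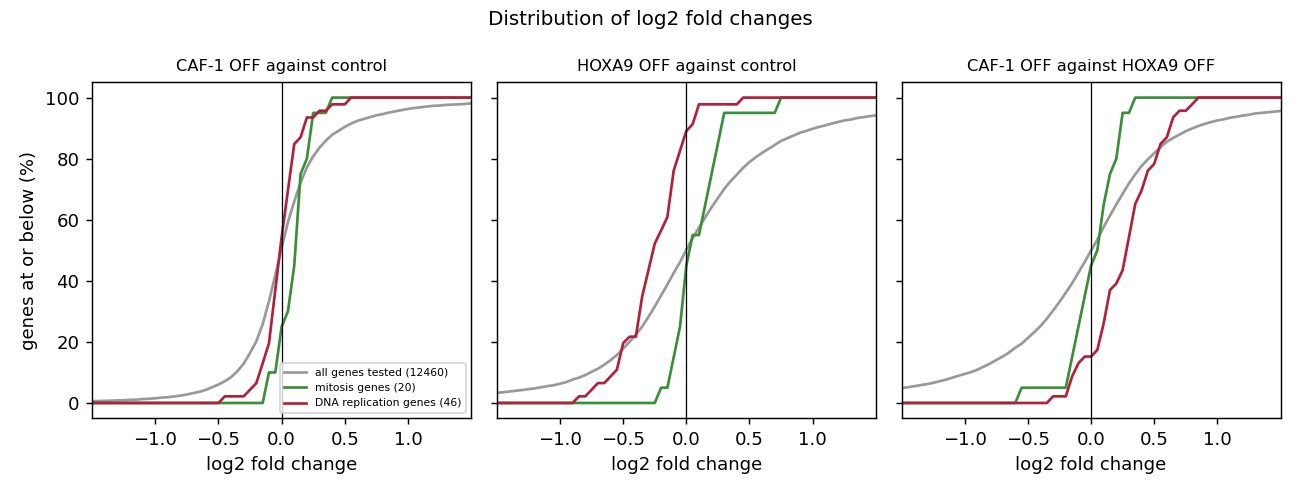
Share of genes (y axis, percent) at or below each log2 fold change (x axis) in the 3 comparisons, for the 46 DNA replication genes, 20 mitosis genes and all 12460 genes tested. In HOXA9 OFF against control 89.1% of replication genes lie at or below 0, against 45% of mitosis genes and 50.2% of all genes.

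Among the 13 genes for the MCM helicase and its loading, Gins2 changed most in HOXA9 OFF. GINS2 is 1 of the 4 subunits of the GINS complex, and its gene lies on chromosome 8 (mm9, 123102533 to 123113204, minus strand). Gins2 stood at 59.8 and 50.9 CPM in HOXA9 OFF, 84.6 and 97.5 CPM in control and 91.1 and 79.8 CPM in CAF-1 OFF. Both HOXA9 OFF values were below the other 4, which overlapped. The log2 fold change was −0.72 ± 0.14 SE in HOXA9 OFF against control (FDR = 0.0101) and 0.63 ± 0.14 in CAF-1 OFF against HOXA9 OFF (FDR = 0.0165). In the annotation 67.3% of the exon bases of Gins2 overlap Gse1 on the opposite strand, and the strand setting of the counting was not stated. Gse1 moved the other way, with 48.3 and 42.4 CPM in HOXA9 OFF and 32.6 and 26.1 CPM in control.

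The partners of Gins2 did not all follow it. Gins1 had 49.0 and 49.7 CPM in HOXA9 OFF, below 65.3 and 77.4 CPM in control (log2 fold change −0.53, FDR = 0.0198, under the fold minimum). Gins3 (log2 fold change 0.07 ± 0.15) and Gins4 (−0.13 ± 0.11) did not pass the test, and the Gins3 libraries overlapped. The difference between subunits was not tested.

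The 6 MCM2-7 subunits form 1 hexamer. Mcm7 had 462 and 453 CPM in HOXA9 OFF against 646 and 632 CPM in control (log2 fold change −0.48 ± 0.09, FDR = 0.0085), and Mcm2 had 355 and 353 CPM against 466 and 451 CPM (−0.37 ± 0.09, FDR = 0.0232). Both passed the FDR but not the fold minimum. Part of the Mcm7 exons lies under other genes, with 3.89% shared with the microRNA genes Mir25 and Mir93 on the same strand and 8.7% with genes on the other strand. Mcm3, Mcm4 and Mcm5 had log2 fold changes of −0.20, −0.08 and −0.09, and none passed. In CAF-1 OFF these 5 subunits ranged from −0.09 to 0.09.

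Mcm6 varied within groups more than any other of the 46 genes. It stood at 650 and 683 CPM in CAF-1 OFF cells, 1148 and 698 CPM in control and 959 and 564 CPM in HOXA9 OFF. Both CAF-1 OFF libraries were below both controls, HOXA9 OFF overlapped the other groups, and the first library exceeded the second 1.64 times in control and 1.70 times in HOXA9 OFF. Its log2 fold changes, −0.47 ± 0.30 in CAF-1 OFF (FDR = 0.63) and −0.28 ± 0.30 in HOXA9 OFF (FDR = 0.52), did not pass the test. Pole was the other gene of the 46 with a library ratio above 1.5, at 105 and 165 CPM in CAF-1 OFF.

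Cdc6, the loading ATPase that recruits MCM together with Cdt1, had the lowest p between CAF-1 OFF and HOXA9 OFF in this subgroup. Its gene lies on chromosome 11 (mm9, 98769115 to 98785254, plus strand). Cdc6 stood at 104 and 108 CPM in CAF-1 OFF cells, 85.1 and 88.7 CPM in control and 70.6 and 68.5 CPM in HOXA9 OFF. The 3 groups did not overlap, with control in the middle. The log2 difference between CAF-1 OFF and HOXA9 OFF was 0.61 ± 0.10 (FDR = 0.00554), whereas against control it was 0.29 ± 0.10 in CAF-1 OFF (edgeR FDR = 0.363) and −0.32 ± 0.10 in HOXA9 OFF (FDR = 0.0464, under the fold minimum). Cdt1 (log2 fold change −0.16 in HOXA9 OFF) and Mcm10 (−0.26), which acts in helicase activation, did not pass. In all, 12 of these 13 genes had a value below 0 in HOXA9 OFF, 5 passed the FDR and 1 was called. Of all genes 50.2% lay at or below 0, 13.8% were lower by FDR alone and 8.97% were called lower.

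The polymerase subgroup had the largest fall of the 46 genes. Pold2 encodes the second subunit of DNA polymerase delta, and lies on chromosome 11 (mm9, 5772183 to 5778295, minus strand). It stood at 97.3 and 91.5 CPM in HOXA9 OFF, 175 and 171 CPM in control and 165 and 155 CPM in CAF-1 OFF. Both HOXA9 OFF libraries were far below the other 4. The log2 fold change was −0.88 ± 0.10 in HOXA9 OFF against control (FDR = 0.00171), a level 1.83-fold lower, and 0.76 ± 0.10 in CAF-1 OFF against HOXA9 OFF (FDR = 0.00278). It was the one gene of the 46 called in HOXA9 OFF whichever library was left out.

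The catalytic subunit Pold1 had 204 and 176 CPM in HOXA9 OFF against 279 and 261 CPM in control (log2 fold change −0.51 ± 0.11, FDR = 0.0149), and the third subunit Pold3 had a log2 fold change of −0.23 ± 0.10 that did not pass. The fourth and smallest subunit, Pold4, was not among the 46 but on a list of 37 further replication genes. It rose, from 42.2 and 48.0 CPM in control to 81.4 and 78.3 CPM in HOXA9 OFF (log2 fold change 0.83 ± 0.16, FDR = 0.0102), with 51.5 and 38.5 CPM in CAF-1 OFF. Thus within 1 complex Pold2 was called lower and Pold4 called higher in the same libraries, and no test of their difference was run.

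Of the remaining polymerase genes, Pola2, the second subunit of polymerase alpha (log2 fold change −0.37 ± 0.09, FDR = 0.0251), and Pole3, a histone-fold subunit of polymerase epsilon (−0.38 ± 0.10, FDR = 0.0267), passed the FDR under the fold minimum. Pola1, Prim1, Prim2, Pole, Pole2 and Pole4 ranged from −0.33 to −0.01 and did not pass. All 11 values of the subgroup were below 0 in HOXA9 OFF, where 50.2% of all genes lay at or below 0. In CAF-1 OFF they ranged from −0.26 (Pole2, FDR = 0.472) to 0.09, and 0 had an unadjusted p under 0.05, against 10.7% of all genes.

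The clamp and its loader held no called gene. Pcna, the sliding clamp, stood at 229 and 218 CPM in HOXA9 OFF, 268 and 276 CPM in control and 290 and 252 CPM in CAF-1 OFF. Both HOXA9 OFF values were below both controls, and the log2 fold change of −0.28 ± 0.11 did not pass (FDR = 0.0884). Of the 5 RFC subunits, Rfc4 (log2 fold change −0.51 ± 0.12, FDR = 0.0211) and Rfc3 (−0.39 ± 0.12, FDR = 0.0477) passed the FDR under the fold minimum, Rfc2 (−0.04) and Rfc5 (0.08) were near 0, and Rfc1, the large subunit, had 313 and 274 CPM in HOXA9 OFF against 243 and 201 CPM in control (0.40 ± 0.15, FDR = 0.0852). The differences between these subunits were not tested. Rfc1 was the only one of the 46 genes with both HOXA9 OFF libraries above both controls, as 35.1% of all genes had. Dscc1 and Chtf18, of the alternative loader linked to sister chromatid cohesion, had log2 fold changes of −0.11 and −0.13. Opposite-strand genes cover 12.6% of the Rfc4 and 10.7% of the Rfc5 exon bases. Across this subgroup 0 of 8 genes were called in any of the 3 comparisons, also by DESeq2. Of all genes, edgeR called 22% in HOXA9 OFF against control and 22.1% in CAF-1 OFF against HOXA9 OFF. In CAF-1 OFF against control it called 0.0321%. An unadjusted p under 0.05 was found for 4 of 8 in HOXA9 OFF against control (2703 of 12460 genes higher, 2513 lower). It was found for 3 in CAF-1 OFF against HOXA9 OFF (2561 of all genes higher, 2710 lower). In CAF-1 OFF against control it was found for 0, against 10.7% of all genes.

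Nucleotide supply held 2 of the 4 genes called in HOXA9 OFF (Dut and Tyms) and the largest difference in CAF-1 OFF (Rrm2). Dut encodes dUTPase, which removes dUTP and yields the precursor of dTMP, and lies on chromosome 2 (mm9, 125072926 to 125084344, plus strand). Dut stood at 208 and 164 CPM in HOXA9 OFF, 299 and 334 CPM in control and 359 and 295 CPM in CAF-1 OFF. Both HOXA9 OFF libraries were lowest, and CAF-1 OFF overlapped control. The log2 fold change was −0.77 ± 0.16 in HOXA9 OFF against control (FDR = 0.0123) and 0.82 ± 0.16 in CAF-1 OFF against HOXA9 OFF (FDR = 0.0105).

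Tyms, thymidylate synthase, makes dTMP from the product of Dut. It stood at 138 and 132 CPM in HOXA9 OFF, 198 and 214 CPM in control and 193 and 174 CPM in CAF-1 OFF. The HOXA9 OFF values were again the lowest (log2 fold change −0.61 ± 0.10, FDR = 0.00675). A further gene of this route, Dctd, a deaminase that makes dUMP from dCMP and one of the list of further replication genes, had 27.7 and 22.9 CPM in HOXA9 OFF against 64.9 and 57.1 CPM in control (−1.27 ± 0.14, FDR = 0.00169). Dut, Tyms and Dctd were thus called lower, while Tk1, the salvage kinase for thymidine, was not, with 92.0 and 77.4 CPM in HOXA9 OFF, 88.6 and 80.2 CPM in control and 94.1 and 99.7 CPM in CAF-1 OFF.

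Rrm2, the small subunit of ribonucleotide reductase, which makes deoxyribonucleotides from ribonucleotides, lies on chromosome 12 (mm9, 25393106 to 25399011, plus strand). It stood at 541 and 584 CPM in CAF-1 OFF cells, 387 and 383 CPM in control and 369 and 337 CPM in HOXA9 OFF. Both CAF-1 OFF libraries were above the other 4. The log2 fold change in CAF-1 OFF against control was 0.55 ± 0.10, the largest of the 46 genes, with an unadjusted edgeR p of 0.000989 and an FDR of 0.153 over all genes, so it was not called. Against HOXA9 OFF the difference was 0.67 ± 0.10 and was called (FDR = 0.00447). Rrm1, the large subunit, had 620 and 616 CPM in CAF-1 OFF cells, 647 and 620 CPM in control and 581 and 551 CPM in HOXA9 OFF. Its CAF-1 OFF libraries were not above the controls (log2 fold change −0.04 ± 0.09). The difference between the 2 subunits of the enzyme was not tested.

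**Figure D4:**
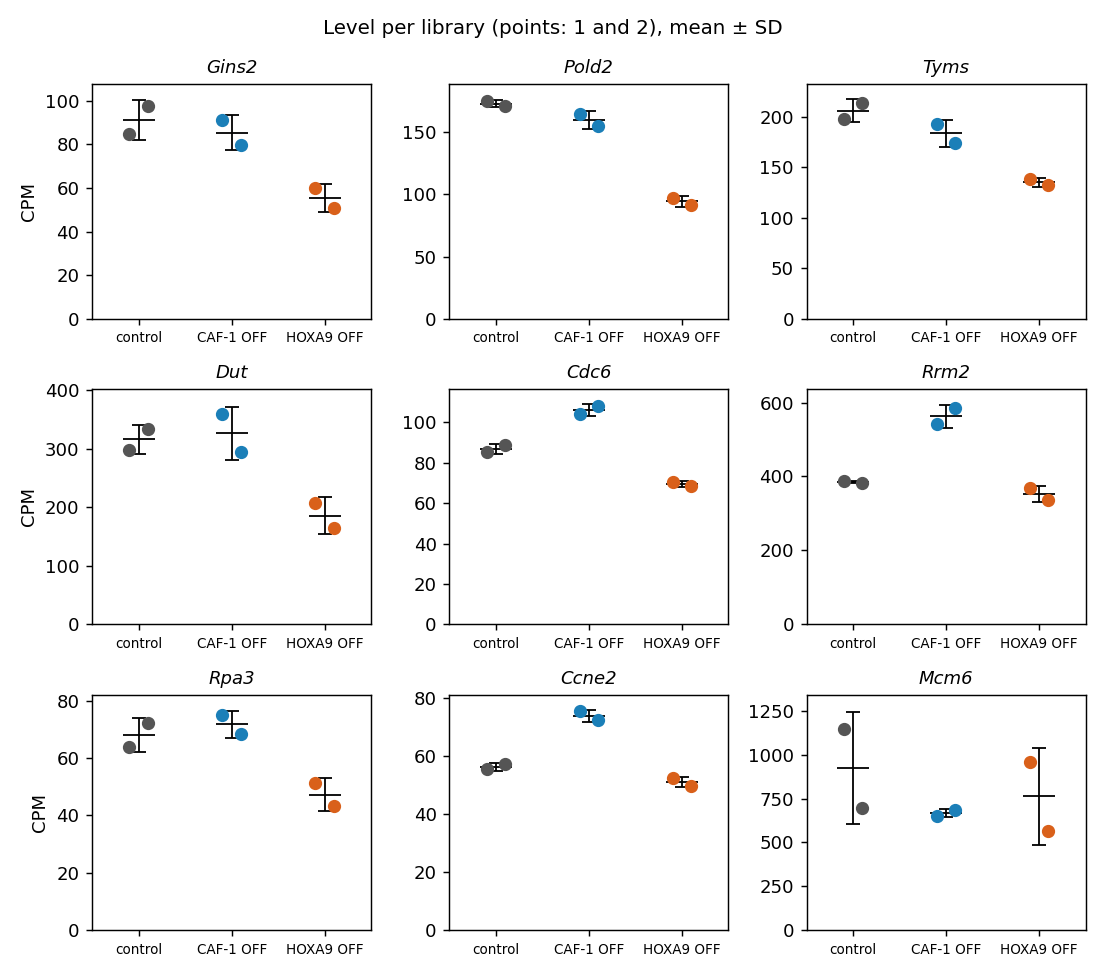
CPM (y axis, from 0) in each library (points) with the mean and SD of the 2 libraries (bars) for the genes called in any comparison and for Ccne2 and Mcm6. In Gins2, Pold2, Tyms, Dut, Cdc6, Rpa3, Rrm2 and Ccne2 both HOXA9 OFF libraries are below both controls. In Rrm2, Cdc6 and Ccne2 both CAF-1 OFF libraries are highest. In Mcm6 CAF-1 OFF lies below both controls while HOXA9 OFF overlaps the other groups.

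The 3 subunits of RPA bind single-stranded DNA as 1 complex. Rpa3, the smallest, on chromosome 6 (mm9, 8205936 to 8209173, minus strand), stood at 51.2 and 43.1 CPM in HOXA9 OFF, 63.9 and 72.3 CPM in control and 75.1 and 68.5 CPM in CAF-1 OFF. It was called between CAF-1 OFF and HOXA9 OFF (log2 difference 0.61 ± 0.13, FDR = 0.0163), and against control HOXA9 OFF was lower by FDR alone (−0.53 ± 0.13, FDR = 0.0254). Rpa2 had a log2 fold change of −0.39 ± 0.11 in HOXA9 OFF (FDR = 0.0419). Rpa1, the large subunit, had 236 and 236 CPM in HOXA9 OFF against 258 and 264 CPM in control, and did not pass (−0.15 ± 0.09). The differences between the RPA subunits were not tested.

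Rnaseh2a, the catalytic subunit of an RNase that removes ribonucleotides from DNA, had a log2 fold change of −0.58 ± 0.15 in HOXA9 OFF (FDR = 0.0298), just short of 1.5-fold. It was called lower with replicate number in the model, with library size alone, with no filter and with only the 4 libraries compared. Tipin, a fork protection protein, had 154 and 136 CPM in HOXA9 OFF against 181 and 199 CPM in control (−0.39 ± 0.12, FDR = 0.0447) and 205 and 182 CPM in CAF-1 OFF. Lig1, the ligase that joins lagging-strand fragments, did not pass (−0.14 ± 0.10). Fen1, the flap nuclease, stood at only 13.8 to 17.1 CPM, but 84.2% of its exon bases overlap opposite-strand genes, so its counts are uncertain.

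Among the 46 genes, the cyclin E gene Ccne2 gave the second smallest unadjusted p in CAF-1 OFF against control. Ccne2 stood at 75.3 and 72.4 CPM in CAF-1 OFF cells, 55.3 and 57.1 CPM in control and 52.2 and 49.7 CPM in HOXA9 OFF. The CAF-1 OFF libraries were above the other 4 (log2 fold change 0.39 ± 0.10 against control, edgeR FDR = 0.273). The opposite-strand gene Ints8 covers 17.4% of its exon bases and had 58.2 to 71.7 CPM. Ccne1 had 51.6 and 52.7 CPM in CAF-1 OFF cells, 44.7 and 47.0 CPM in control and 46 and 39.6 CPM in HOXA9 OFF, with both CAF-1 OFF libraries highest, and did not pass (0.19 ± 0.12, FDR = 0.628).

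Levels could be compared between genes only per length, as mean RPKM over the union of exons in control. The highest in each subgroup were Mcm6 (211), Pold2 (91.3), Rfc2 (152), Rrm1 (159), Tipin (157) and Ccne1 (17.2 RPKM). With the longest transcript of each gene as its length, 3 of these 6 gave way to another gene, Mcm7 (216 against 212 for Mcm6), Pcna (179 against 152 for Rfc2) and Rrm2 (176 against 159 for Rrm1), so the order depends on the length used. The Mcm6 libraries differed widely within control, as given above, so its rank is uncertain. In CAF-1 OFF Mcm3 (201 RPKM) stood above Mcm6 (153 RPKM), and in HOXA9 OFF below it (165 against 174 RPKM). Rfc2 had 221 and 193 CPM in CAF-1 OFF cells, 227 and 235 CPM in control and 241 and 210 CPM in HOXA9 OFF, with overlap between HOXA9 OFF and control. The lowest were Dscc1 (3.78 RPKM) and Fen1 (5.98 RPKM).

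**Figure D5:**
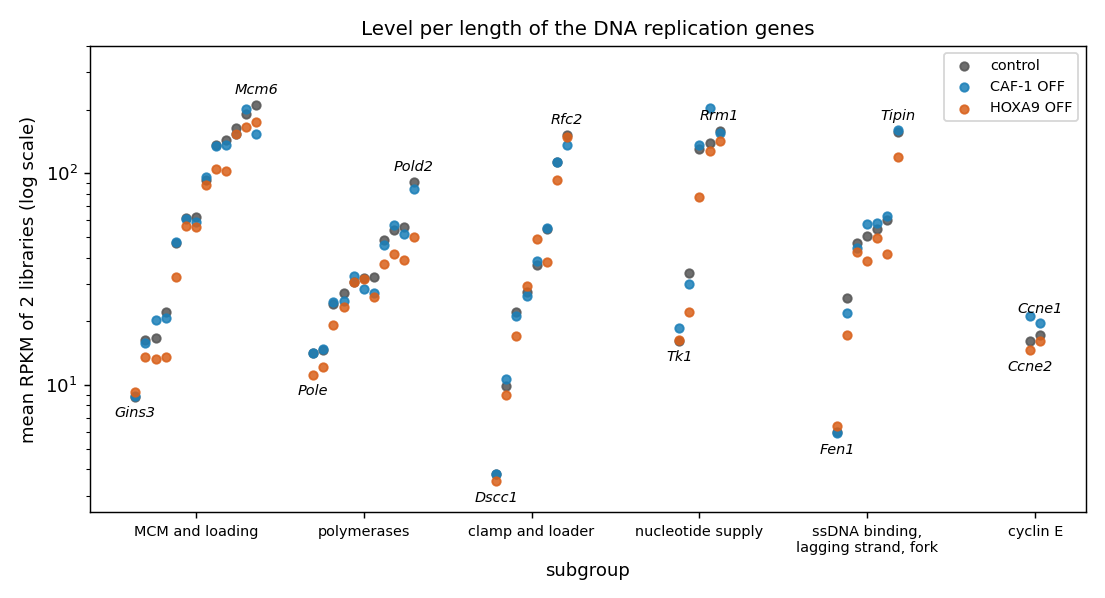
Mean RPKM of the 2 libraries (y axis, log scale) of each gene (columns of points, ordered by the control level) by subgroup (x axis), in control, CAF-1 OFF and HOXA9 OFF, with the highest and lowest gene of each subgroup named. Control levels run from 3.78 for Dscc1 to 211 for Mcm6, and Rrm2 in CAF-1 OFF reaches 203.

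The wider pathway was read from a list of 37 further replication genes, of which 36 were in the files and all 36 were tested. In HOXA9 OFF 4 of 36 were called lower (Orc1, Recql4, Dctd and Cad) and 2 higher (Pold4 and Samhd1), where 8.97% and 13% of all genes were. By FDR alone 9 were lower and 2 higher, where 13.8% and 16% of all genes were. Samhd1, a hydrolase that breaks down deoxyribonucleotide triphosphates, rose most, from 39.6 and 39.5 CPM in control to 116 and 120 CPM in HOXA9 OFF (log2 fold change 1.58 ± 0.11, FDR = 0.000493), and CAF-1 OFF had 47.4 and 40.9 CPM. Recql4, a helicase that acts in replication initiation, had 18.6 and 21.6 CPM in HOXA9 OFF against 37.0 and 45.7 CPM in control (−1.04 ± 0.22, FDR = 0.0137) and 23.8 and 35.2 CPM in CAF-1 OFF. In CAF-1 OFF against control 0 of 36 were called by edgeR and 0 by DESeq2, with 2 at an unadjusted p under 0.05. For all genes these shares were 0.0321%, 1.54% and 10.7%. The median log2 fold change over the 36 was −0.17 in HOXA9 OFF and −0.05 in CAF-1 OFF.

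Of 16 genes of the E2F and retinoblastoma families and their partners, 3 were called higher in HOXA9 OFF (E2f2, Rb1 and Rbl2) and 1 lower (E2f5), where 13% and 8.97% of all genes were. E2f2, an activating E2F, had 67.6 and 65.5 CPM in HOXA9 OFF, 27.1 and 27.0 CPM in control and 38.0 and 40.1 CPM in CAF-1 OFF, so that the 3 groups did not overlap (log2 fold change 1.30 ± 0.11 in HOXA9 OFF, FDR = 0.000634, and 0.53 ± 0.11 in CAF-1 OFF, FDR = 0.185). Rb1, the retinoblastoma gene itself, had 79.4 and 87.4 CPM in HOXA9 OFF against 52.8 and 48.6 CPM in control (0.72 ± 0.14, FDR = 0.012). E2f5, a repressing E2F, was low throughout, with 3.18 and 4.06 CPM in HOXA9 OFF against 8.29 and 7.66 CPM in control (−1.14 ± 0.23, FDR = 0.0117). Mybl2, which acts in the switch from S phase to mitosis, had 63.9 and 58.7 CPM in HOXA9 OFF, 91.9 and 86.1 CPM in control and 101 and 104 CPM in CAF-1 OFF, and was called between CAF-1 OFF and HOXA9 OFF (0.74 ± 0.10, FDR = 0.0035).

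Among 20 mitosis genes, 11 values lay above 0 and 9 below in HOXA9 OFF against control. In HOXA9 OFF against control edgeR called 0 of 20, against 22% of all genes. DESeq2 called 1 (Mki67, a proliferation marker, higher), against 22.7% of all genes. At an unadjusted p under 0.05 there was 1 of 20, where 2703 of 12460 genes were higher and 2513 lower. Mki67 stood at 494 and 446 CPM in HOXA9 OFF, 323 and 239 CPM in control and 234 and 391 CPM in CAF-1 OFF, and its edgeR FDR was 0.0673. In CAF-1 OFF against control, 0 of 20 were called by edgeR, 0 by DESeq2 and 0 had an unadjusted p under 0.05. For all genes these shares were 0.0321%, 1.54% and 10.7%. The median log2 fold change of the 20 genes was 0.03 in HOXA9 OFF and 0.12 in CAF-1 OFF. No test of the difference between mitosis and replication genes was run.

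Of the 4 genes called in HOXA9 OFF, 3 had a promoter entry and 0 held an E2F word. Each window follows a RefSeq start on a newer build than the mm9 gene positions. Whether the Dut and Cdc6 windows reach the mm9 gene starts was not checked, so words there could be missed. Among the 14 genes with a word, as in the promoters of Mcm6 and Cdc6 printed above, the median log2 fold change in HOXA9 OFF was −0.25, with 0 called and 4 past the FDR. Among the 22 with an entry but no word, which include Pold2, Tyms and Dut, it was −0.30, with 3 called and 10 past the FDR. Among the 10 without an entry it was −0.14, with 1 called (Gins2) and 3 past the FDR. Of all genes 8.97% were called lower and 13.8% were lower by FDR alone. In CAF-1 OFF the medians were −0.09, 0.01 and 0.00. These are descriptions over genes, with no test.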

How the data were processed

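RNA-seq was performed on 6 libraries, 2 each of CAF-1 OFF, control and HOXA9 OFF iGMPs, grouped by their titles. Libraries were made with a directional kit. The authors used STAR for alignment to mm9 and HTSeq for counting (submitters' processing notes), and the deposited values are raw read counts per gene symbol. The annotation and strand setting used for counting are not given in the sources used here. Reads with several alignments are not counted by HTSeq by default, which lowers the counts of genes that have close copies. Lines that name no gene were left out; reads in no annotated gene came to 5.95 to 8.26 per 100 gene counts.

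Counts were analysed with edgeR 4.0.16 in R 4.3.3. Genes were kept by filterByExpr, scaled by TMM and fitted with 1 mean per group over all 6 libraries, which share 1 estimate of the spread. Calls needed a 1.5-fold difference or more and an FDR (Benjamini-Hochberg) under 0.05 over 12460 genes in the quasi-likelihood test. Standard errors came from its F statistic. The procedure was tested on simulated data. RPKM used the union of exons in the GENCODE annotation of mm9. Promoters and motifs came from RefSeq.

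The 46 genes and all lists were chosen with earlier results of these data known. By rule, values in each library were given for the largest called rise and fall in each subgroup, the 3 lowest p in CAF-1 OFF against control, the highest level per length, all genes of subgroups of 5 or fewer, and the 3 largest called changes of each further list. Other genes, and the promoters printed, were chosen after their values were seen. A planned comparison of MCM protein sequences was not analysed here.

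The titles share replicate numbers, but nothing says that they pair cultures, so no block was used in the main model. Same-numbered libraries had deviation correlations of −0.178 (CAF-1 OFF and control), 0.033 (CAF-1 OFF and HOXA9 OFF) and 0.456 (control and HOXA9 OFF). Libraries of a group differed by more than sampling noise (chi-square per degree of freedom of at least 20.5). Alternatives were a replicate block, other scaling, DESeq2 1.42.0, other filters and cutoffs, the 4 libraries compared and leaving out each library. Limits of 3 counts cover counting error only, since PCR reads without molecular identifiers are not independent molecules. No sequencing batch was labelled.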

Additional observations from a re-analysis of the deposited data

Results flagged for a closer look

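Reads that fell in no annotated gene, which are outside the gene comparisons, came to 7.84 and 8.26 per 100 gene counts in HOXA9 OFF 1 and 2, above both controls at 6.87 and 7.15, and CAF-1 OFF had 5.95 and 7.3. No group had the 4 libraries needed to look for an outlying sample.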

How the results depend on the processing

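Between CAF-1 OFF and control, 0 of the 46 genes were called under every alternative run. In HOXA9 OFF against control (4 genes) it was 9 with library size alone, against 11.3% of all genes called lower. It was 17 with the FDR alone, against 13.8%, and 0 at 2-fold and an FDR under 0.01, against 2.25%. In CAF-1 OFF against HOXA9 OFF (6 genes) it was 10, 18 and 0 in the same order. There 11.8%, 14.3% and 2.91% of all genes were called higher. Leaving out single libraries changed both counts, as given above. Library size alone moved the median log2 fold change to −0.348 (from −0.267) and 0.365 (from 0.288), where the median of all genes moved to −0.084 and 0.078. Leaving out each library gave medians of −0.278 to −0.218 and 0.229 to 0.329. In CAF-1 OFF against control the median of −0.004 moved to −0.016 with the replicate block, −0.016 with no filter, 0.008 with the filter at a mean of 5 CPM, and −0.05 to 0.002 leaving out each library.

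Over all genes, the 4 calls between CAF-1 OFF and control became 192 with the DESeq2 Wald test, 378 with no filter, 9 with only the 4 libraries compared, 0 at the stricter cutoffs, and 0 to 10 leaving out each library. The 2740 calls in HOXA9 OFF became 987 at the stricter cutoffs and 1602 to 2840 leaving out each library, and the 2755 calls in CAF-1 OFF against HOXA9 OFF became 948 and 1711 to 2718. The cause of these changes was not tested.

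Replicate numbers paired nothing known. With the replicate block the calls among the 46 were 0, 5 (Rnaseh2a added) and 6 in the 3 comparisons, and over all genes 2 in CAF-1 OFF against control. There 8.76% of all genes were called lower in HOXA9 OFF, and 9.27% higher in CAF-1 OFF against HOXA9 OFF. Crossed numbers, added after seeing the data because of the negative correlation, gave 71 of all genes in CAF-1 OFF against control and 0, 4 and 6 of the 46.

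The sign turned under at least 1 alternative for 20 of the 46 genes in CAF-1 OFF against control, 10 in HOXA9 OFF against control and 8 in CAF-1 OFF against HOXA9 OFF, and 0 of these were called or had an FDR under 0.05. Among the fold changes that the naming rule covers they were those of Tk1 in HOXA9 OFF (0.00; −0.08 with library size alone, 0.0 with no filter, −0.13 to 0.13 leaving out each library), Dut in CAF-1 OFF (0.05; −0.1 to 0.2) and Ccne1 in HOXA9 OFF (−0.10; −0.21 to 0.01). Each of the 46 genes had 227 counts or more in every library.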
